A study of Mus musculus with 112 samples.

Results

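A pair of control arrays in a study of mouse cerebral cortex carried very high signal of genes of the cerebellum, and these arrays and the genes that set them apart are described here. One array is labelled C57BL6/J control replicate 6. The other is labelled B6C3F1/J control replicate 8. They were selected on their measured values: Gabra6, Cbln3 and Ppp1r17, 3 genes of cerebellar neurons, were far higher there than in the other controls. Each array was set against the other 7 control arrays of its own strain, so 2 arrays were compared with 14. A gene was kept where, in each of the 2 arrays, its log2 signal lay at least 1 unit (2-fold) from the mean of the other 7 and outside their range, in the same direction in both. That left 990 of 19938 genes, 329 higher in both arrays and 661 lower in both. Since the arrays and the genes were chosen by these values, the differences between the 2 arrays and the 14 are given as a description with no test.

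The whole series held 112 arrays, 1 for each male mouse, from 7 strains with 8 mice on a calorie restricted (CR) diet and 8 on a control diet per strain. Mice were housed singly from arrival at 6 weeks of age, fed 84 kcal per week of an AIN93M-type diet until 8 weeks, and then given their assigned diet until 22 weeks, when tissue was taken after an overnight fast. C57BL6/J is an inbred strain, and B6C3F1/J is the hybrid of C57BL6/J and C3H/HeJ parents. The 2 arrays and the 14 they were set against came from control-fed mice of these 2 strains, 8 per strain, with no transgene or drug. The study gave CR mice of C57BL6/J a further cut in food partway through, which it did not give to those of B6C3F1/J. Each array is a separate mouse, so a value of 1 array has no replicate of its own.

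The cerebellum lies behind the cortex and is built from few kinds of neuron. Granule cells, small glutamatergic neurons that are the most numerous in the brain, send parallel fibres to Purkinje cells, the large inhibitory neurons that carry the output of the cerebellar cortex. Stellate, basket and Golgi interneurons inhibit both, and Bergmann glia are the astrocytes that ensheath Purkinje cell synapses. In the cerebral cortex the main neurons are instead glutamatergic pyramidal cells, formed under transcription factors such as Tbr1, and interneurons that express Sst, Vip or Npy.

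Of the whole series, array medians lay between 7.14 and 7.26 log2 units. The mean log2 level of the 10 cerebellar markers fixed for this description (Gabra6, Cbln1, Cbln3, Pcp2, Car8, Fat2, En2, Zic1, Neurod1 and Ppp1r17) was 11.47 in the array labelled C57BL6/J control replicate 6 and 11.59 in the array labelled B6C3F1/J control replicate 8, against 6.49 to 7.40 in 108 other arrays. Between them lay DBA/2J control replicate 8 at 8.46, and also CBA/J CR replicate 6 at 8.23. The label of both arrays, like that of all others, is cerebral cortex, and Tbr1, a defining factor of cortical projection neurons, went against it. Both arrays are therefore named by their labels and by their leading genes. In arrays of whole tissue, fewer cells of a type and less RNA per cell cannot be told apart.

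Past the limit and outside the range of the other 7, the array labelled C57BL6/J control replicate 6 had 503 genes higher (2.52% of those measured) and 909 lower (4.56%). The array labelled B6C3F1/J control replicate 8 had 426 higher (2.14%) and 716 lower (3.59%). Genes higher in both made up 1.65% of all genes and genes lower in both 3.32%. The 329 shared higher genes were 65.4% of the higher genes of the first array and 77.2% of those of the second, and the 661 shared lower genes were 72.7% and 92.3%. No gene (0) was past both conditions in opposite directions.

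The differences of the 2 arrays, which share no control sample, ran together over the 19938 genes with a Pearson r of 0.874 and a Spearman rho of 0.713, given as a description since genes are not independent replicates. The median difference was 1.47 log2 units for the higher genes in the C57BL6/J array and 1.61 in the B6C3F1/J array, and -1.74 and -1.53 for the lower genes, beside 0.05 and 0.02 over all genes. Of the 990 genes, 897 (90.6%) had differences within 0.5 log2 units of each other in the 2 arrays. The median SD of the other 7 arrays over these genes was 0.11 log2 units in C57BL6/J and 0.15 in B6C3F1/J. Differences of at least 3 log2 units (8-fold) in both arrays were held by 19 higher and 35 lower genes.

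**Figure D1:**
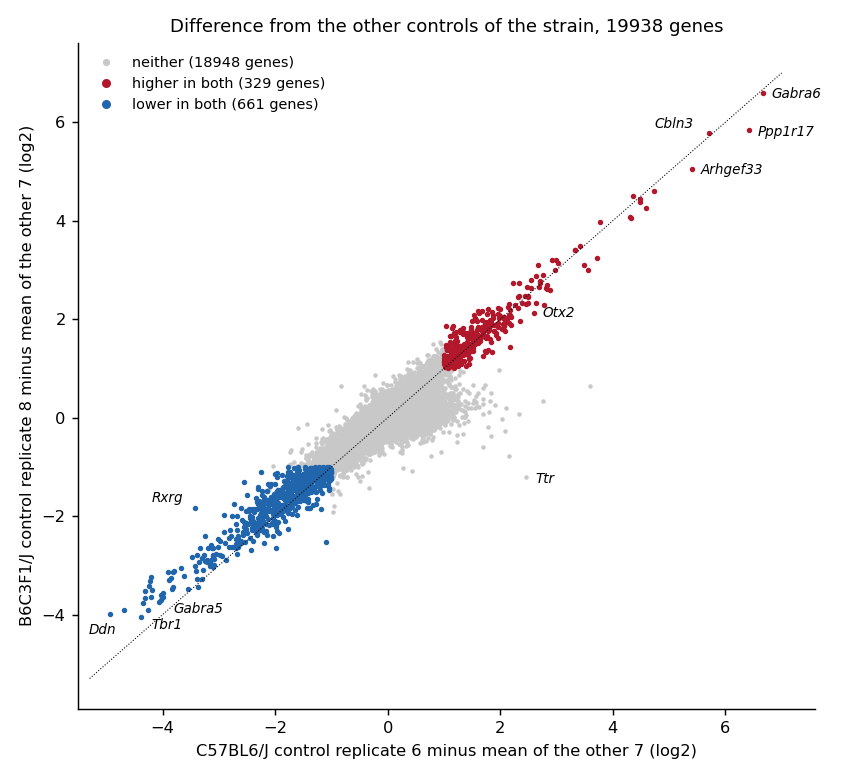
Each point is a gene, placed by its log2 signal in C57BL6/J control replicate 6 minus the mean of the other 7 C57BL6/J controls (x axis) and in B6C3F1/J control replicate 8 minus the mean of the other 7 B6C3F1/J controls (y axis), with red for the 329 genes higher in both, blue for the 661 lower in both and grey for the rest. Most genes follow the dotted line of equal difference, from Ddn and Tbr1 at the lower left to Gabra6 at the upper right, and Ttr, a choroid plexus gene, lies far below it.

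The limit cut through a continuous range of differences. Just inside it on the higher side were Mtcl1 (1.002 in the C57BL6/J array and 1.265 in the B6C3F1/J array), Fem1c (1.002 and 1.087) and Sel1l3 (1.002 and 1.201), and just outside were Itpkb (0.9996 and 1.183), Tle2 (0.996 and 1.030) and Mirlet7f-1 (0.995 and 0.996). On the lower side, R3hdm1 (-1.145 and -1.002), Vstm2l (-1.467 and -1.003) and Iqsec3 (-1.219 and -1.003) were just inside, and Rgs12 (-1.134 and -0.9998), Git1 (-1.406 and -0.999) and Ppp1r9a (-1.189 and -0.999) just outside.

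The 96 arrays of the other groups were not used in choosing the genes. Of the 329 higher genes, 322 (97.9%) had both arrays above every one of these 96, and 653 of the 661 lower genes (98.8%) had both arrays below all of them. Over all genes measured, 8.05% had both arrays above the 96 and 10.9% had both below. The members had been chosen for standing apart from 14 control arrays, so these shares are not independent of the choice.

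Promoters of genes at both ends of the range are shown so that their letters can be compared, each from 250 bases before to 50 bases after the annotated start, with RefSeq's GRCm38.p6 positions. Gabra6 (chr11:42321023-42321322, minus strand) and Cbln3 (chr14:55884207-55884506, minus strand) were among the 12 highest genes. Tbr1 (chr2:61804203-61804502, plus strand) and Gabra5 (chr7:57510010-57510309, minus strand) were among the 12 lowest. Capitals mark a match to CAGATG or its complement CATCTG, an E-box bound by factors of the Neurod type.
Gabra6 promoter: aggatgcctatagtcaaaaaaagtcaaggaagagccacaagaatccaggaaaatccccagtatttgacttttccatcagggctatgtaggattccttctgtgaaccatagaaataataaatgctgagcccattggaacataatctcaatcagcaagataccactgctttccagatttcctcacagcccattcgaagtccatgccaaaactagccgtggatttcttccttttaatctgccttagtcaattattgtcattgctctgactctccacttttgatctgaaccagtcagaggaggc
Cbln3 promoter: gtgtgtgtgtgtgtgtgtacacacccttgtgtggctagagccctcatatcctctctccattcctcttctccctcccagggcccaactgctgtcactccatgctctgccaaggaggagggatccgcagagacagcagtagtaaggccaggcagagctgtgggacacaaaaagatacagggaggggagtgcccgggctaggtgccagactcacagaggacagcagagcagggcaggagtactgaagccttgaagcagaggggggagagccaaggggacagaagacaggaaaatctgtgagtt
Tbr1 promoter: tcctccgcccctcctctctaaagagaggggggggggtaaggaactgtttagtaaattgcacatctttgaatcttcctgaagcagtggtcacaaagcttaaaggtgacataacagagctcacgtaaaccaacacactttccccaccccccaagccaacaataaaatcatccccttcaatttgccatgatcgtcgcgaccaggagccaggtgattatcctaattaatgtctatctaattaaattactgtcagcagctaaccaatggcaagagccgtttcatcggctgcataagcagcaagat
Gabra5 promoter: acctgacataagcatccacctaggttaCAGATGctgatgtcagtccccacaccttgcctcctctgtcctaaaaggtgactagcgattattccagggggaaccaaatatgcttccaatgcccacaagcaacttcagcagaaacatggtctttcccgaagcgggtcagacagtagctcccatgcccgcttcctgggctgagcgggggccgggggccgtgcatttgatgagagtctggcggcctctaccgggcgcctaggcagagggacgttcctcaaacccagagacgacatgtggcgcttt
The E-box letters stood in the window of Gabra5. They also stood in that of Agt, a higher gene picked because its window holds them, and that window is not printed. A window was matched for 253 of the 329 higher genes, 493 of the 661 lower genes and 15614 of all genes. CAGATG, read on both strands, was held by 18.6% of the higher genes, 15.2% of the lower genes and 16.1% of all genes. TAGGTCA, the response element of ROR receptors such as Rora, was held by 2.77%, 2.43% and 2.63% of the same sets, and GGTGTGA, the core of a T-box site, by 4.74%, 4.67% and 4.39%. The ends of TAGGTCA and of TCACACC, the complement of GGTGTGA, share the letters TCA, so these motifs can overlap, and the E-box motif was searched on its own. A CpG observed over expected ratio of at least 0.6 was found in 60.1% of the higher genes, 63.3% of the lower genes and 55.1% of all genes. These shares were not tested, and a match is a description of the letters only.

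The gene with the largest higher difference in both arrays was Gabra6, the GABA-A receptor alpha6 subunit of granule cells. Its log2 signal was 12.17 in the array labelled C57BL6/J control replicate 6, against a lowest of 5.26, a median of 5.50 and a highest of 5.97 in the other 7 C57BL6/J controls. It was 12.32 in the array labelled B6C3F1/J control replicate 8, against 5.44, 5.50 and 6.97 in the other 7 B6C3F1/J controls. In both strains a wide gap with no overlap separated the array from its controls, and among the B6C3F1/J controls replicate 6 stood above the rest. The differences were 6.66 and 6.59 log2 units of signal. The values come with no detection call, so whether the dimmer side of a gene was above background was not tested and differences are not turned into folds.

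Cbln3, a cerebellin secreted by granule cells together with Cbln1, had 12.20 in the C57BL6/J array, against a lowest of 6.26, a median of 6.47 and a highest of 6.88 in its controls. In the B6C3F1/J array it had 12.47, against 6.39, 6.55 and 7.73. Cbln1, the organizer of parallel fibre synapses on Purkinje cells, had 11.49 in the C57BL6/J array and 11.71 in the B6C3F1/J array, with controls of 6.78 to 7.19 and 6.86 to 7.92. For both genes the groups did not overlap, and the highest B6C3F1/J control was again replicate 6 in the case of Cbln3. Differences were 5.70 and 5.77 log2 units for Cbln3 and 4.49 and 4.44 for Cbln1.

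Of 20 granule cell genes listed, 18 were higher in both arrays and none lower, with medians of 2.85 log2 units in the C57BL6/J array and 2.79 in the B6C3F1/J array, beside 0.05 and 0.02 over all genes. Fat2, a giant cadherin of parallel fibres, differed by 4.48 and 4.38. The transcription factor Neurod1, needed for granule cells to form, had 11.41 in the C57BL6/J array and 11.73 in the B6C3F1/J array, against controls of 7.49 to 7.83 and 7.26 to 8.29. Zic1 and Zic2, zinc finger factors of granule cell precursors, differed by 4.30 and 4.08, and by 3.32 and 3.41. The other factors Pax6 (2.50 and 2.47), Meis1 (2.82 and 2.70), Barhl2 (2.93 and 3.20) and Etv1 (1.88 and 1.76) were also higher. The 2 that missed the limit in 1 array were Gabrd, the extrasynaptic delta subunit (0.93 and 1.01), and Barhl1 (0.69 and 1.02).

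Ppp1r17, a phosphatase inhibitor known as a G-substrate of Purkinje cells, had 10.89 in the C57BL6/J array, against controls of 4.26 to 4.93 with a median of 4.36. It had 10.70 in the B6C3F1/J array, against 4.57 to 5.40 with a median of 4.72. No control came near either array, and the differences were 6.42 and 5.84 log2 units. Car8, a carbonic anhydrase relative that binds the IP3 receptor in Purkinje cells, had 12.41 in the C57BL6/J array and 12.13 in the B6C3F1/J array, against 7.69 to 8.03 and 7.65 to 8.33. Pcp2, a Purkinje cell protein that modulates G-protein signalling, had 10.09 and 10.39, against 6.52 to 6.96 and 6.77 to 7.17. Neither gene's groups overlapped.

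Among 19 Purkinje cell genes measured of 23 listed, 16 were higher in both arrays and none lower, with medians of 2.06 and 2.03 log2 units. They included the calcium buffer Calb1 (1.98 and 2.01), the glutamate transporter Slc1a6 (2.64 and 2.33), the scaffold Homer3 (2.07 and 2.03) and the nuclear receptor Rora (1.18 and 1.35). Lhx1, a LIM homeobox factor of Purkinje cells, differed by 2.83 and 2.62, while its relative Lhx5 stayed at 0.83 and 0.84, inside the limit. Pcp4, a calmodulin regulator that cortical neurons also express, differed by 0.08 and 0.13. The other listed genes of this set were not analysed here.

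Cerebellar interneuron genes were divided. Of 10, 5 were higher in both arrays: Tfap2b, a factor of inhibitory precursors (2.68 and 3.10), the glycine transporter Slc6a5 of Golgi cells (2.43 and 2.47), the parvalbumin gene Pvalb (2.23 and 2.73), Eomes of unipolar brush cells (2.18 and 1.88) and the receptor Kit (1.42 and 1.72). Nxph1 (-1.01 and -0.80) and Sorcs3 (-1.39 and -0.74), which the cortex expresses too, lay below the controls. Of 9 Bergmann glia genes, 5 were higher, among them A2m (3.55 and 3.01), the growth factor Gdf10 (2.17 and 2.19), Timp4 (1.84 and 1.95) and the AMPA receptor subunit Gria4 (1.17 and 1.23). The glutamate transporter Slc1a3 differed by 0.64 and 0.70, and the fatty acid binding protein Fabp7 by 0.18 and 0.08.

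Besides the fixed markers, the 12 largest higher genes included Arhgef33, with 11.99 in the C57BL6/J array and 11.65 in the B6C3F1/J array, against controls of 6.42 to 7.02 and 6.29 to 7.00. Cnpy1, a relative of a zebrafish FGF signalling regulator, differed by 4.74 and 4.61 from controls of 5.99 to 6.58 and 6.15 to 6.72. Il16 had 10.92 and 10.76, against 6.48 to 6.71 and 6.57 to 6.96, and its neuronal form is known from cerebellar granule cells. In each of the 3 genes both arrays lay over 4 log2 units above the mean of the controls.

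**Figure D2:**
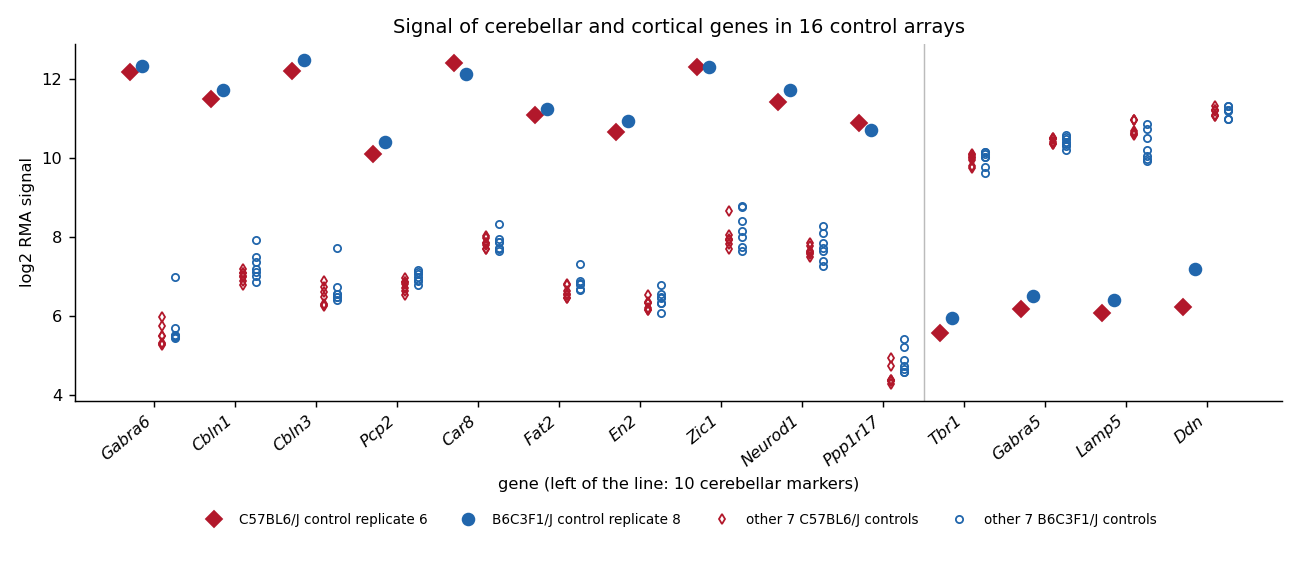
Log2 RMA signal (y axis) of the 10 cerebellar markers and 4 of the lower genes (x axis) in C57BL6/J control replicate 6 (filled diamonds) and in B6C3F1/J control replicate 8 (filled circles) and in the other 7 controls of each strain (open symbols, 1 per array). In every gene shown the filled symbols lie clear of the open ones, above them for the markers (Gabra6 at 12.17 and 12.32) and below them for Tbr1, Gabra5, Lamp5 and Ddn.

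Most genes listed for neighbouring regions were no members, and over all genes members made up only 1.65% (higher) and 3.32% (lower). En2, an engrailed factor that patterns the midbrain and hindbrain and stays on in cerebellar neurons, had 10.65 in the C57BL6/J array and 10.92 in the B6C3F1/J array, against controls of 6.14 to 6.53 and 6.06 to 6.78. It was the 1 gene of 9 mid-hindbrain patterning factors past the limit: En1 differed by 0.49 and 0.68, Irx3 by 0.49 and 0.51 and Gbx2 by 0.16 and 0.05. None of 11 HOX genes, which mark the brainstem behind the cerebellum and the spinal cord, was a member, and their medians were 0.17 and -0.06. None of 10 genes of monoamine and cholinergic neurons was a member either (medians 0.06 and -0.16), with the serotonin enzyme Tph2 at -0.02 and -0.25 and the acetylcholine enzyme Chat at -0.49 and -0.30. In the C57BL6/J and B6C3F1/J arrays the mean log2 level was 6.17 and 6.11 for the HOX list and 6.46 and 6.44 for this list. Whether such dim genes were above background was not tested, and lists this short would hold few members at the shares of all genes. Of 10 thalamic genes, 3 were higher, Zic1, Rora and Prkcd, the last a kinase also known from Purkinje cells (1.21 and 1.64), while Tcf7l2 (-0.21 and -0.11) and Lef1 (-0.04 and -0.34) were not.

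Tbr1, the T-box factor of deep-layer and early cortical neurons, had the largest lower difference in the B6C3F1/J array and the third largest in the C57BL6/J array, after Ddn and Lamp5. It had 5.56 in the C57BL6/J array, against a lowest of 9.73, a median of 9.99 and a highest of 10.10 in its controls, and 5.93 in the B6C3F1/J array, against 9.62, 10.02 and 10.16. The arrays lay far below every control, at differences of -4.39 and -4.04 log2 units. Of 16 cortical transcription factors measured of 19 listed, 9 were lower in both arrays and none higher, with medians of -1.58 and -1.54. Neurod6 (-2.99 and -2.79), Mef2c (-2.89 and -2.54), Lmo4 (-2.55 and -2.11), Fezf2 (-2.52 and -2.16) and Lhx2 (-2.34 and -2.32), all factors of projection neurons or their precursors, had the largest differences after Tbr1. Emx1 (-0.21 and -0.47), Cux1 (0.22 and 0.50) and Neurod2 (0.36 and 0.55), a factor of both granule cells and cortical neurons, stayed inside the limit.

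Of 20 genes of cortical excitatory neurons, 17 were lower in both arrays and none higher, with medians of -2.88 and -2.55 log2 units. Ddn, dendrin of the postsynaptic density, had 6.23 in the C57BL6/J array and 7.18 in the B6C3F1/J array, against controls of 11.06 to 11.32 and 10.99 to 11.32. Lamp5, a lysosome-associated protein of upper-layer and some inhibitory neurons, had 6.07 and 6.41, against 10.57 to 10.97 and 9.92 to 10.86. The kinase Ptk2b (-4.04 and -3.61), the calmodulin-regulated phosphodiesterase Pde1a (-4.07 and -3.74), the Ras exchange factor Rasgrf2 (-3.85 and -3.26), the calmodulin-binding Nrgn (-3.49 and -2.83) and the kinase Camk2a (-3.01 and -2.64) were lower as well. The vesicular glutamate transporter Slc17a7, which granule cells and cortical neurons share, differed by -1.09 and -0.64 and was no member. Nptx1, a neuronal pentraxin, lay above the controls by 0.43 and 0.73.

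The other genes among the 12 lowest were the membrane proteins Mal2 (-4.35 in the C57BL6/J array and -3.77 in the B6C3F1/J array) and Neto1 (-4.03 and -3.70), a partner of kainate receptors, the potassium channels Kcnt2 (-4.32 and -3.67) and Kcnh5 (-3.99 and -3.56), Vxn (-4.21 and -3.65), Dbpht2 (-3.99 and -3.65) and Gabra5. Mal2 had 7.72 and 8.18, against controls of 11.97 to 12.16 and 11.75 to 12.07. Those levels lay well apart from the controls.

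Of 19 interneuron genes of the cortex measured, 9 were lower in both arrays, 1 was higher and 9 were neither, with medians of -1.21 and -1.06. Somatostatin (Sst) had 7.23 in the C57BL6/J array and 8.41 in the B6C3F1/J array, against controls of 11.37 to 11.54 and 11.36 to 11.99, so that neither array overlapped with its controls. Tac1 (-4.20 and -3.51), Npy (-2.29 and -1.69), Vip (-1.75 and -1.63) and the homeobox factors Dlx1 (-2.13 and -2.06) and Dlx5 (-1.51 and -1.41) were lower too. The 1 higher gene was Nos1 (1.13 and 1.31), neuronal nitric oxide synthase, which granule cells also make. Gad1 (0.25 and 0.20) and Gad2 (-0.52 and -0.45), the GABA-synthesizing enzymes that inhibitory neurons of both regions use, stayed inside the limit.

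Genes of striatal neurons, from the basal ganglia beneath the cortex, were lower in both arrays in 6 of 9 measured. The controls themselves varied widely here. Tac1, shared with cortical interneurons, had 5.82 in the C57BL6/J array, against a lowest of 9.47, a median of 10.11 and a highest of 10.25 in its controls, and 5.68 in the B6C3F1/J array, against 7.82, 8.55 and 10.73. The C57BL6/J controls were tightly grouped and the B6C3F1/J controls were spread widely, with an SD of 1.23. The mean level of the 9 striatal genes was 8.14 in the C57BL6/J array, against 9.83 to 10.52 in its controls, and 8.31 in the B6C3F1/J array, against 8.61 to 10.76. The median differences were -2.19 and -1.57 log2 units. Of 9 olfactory bulb genes, 1 was higher, Eomes, which unipolar brush cells also express, and the medians were 0.15 and -0.18.

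**Figure D3:**
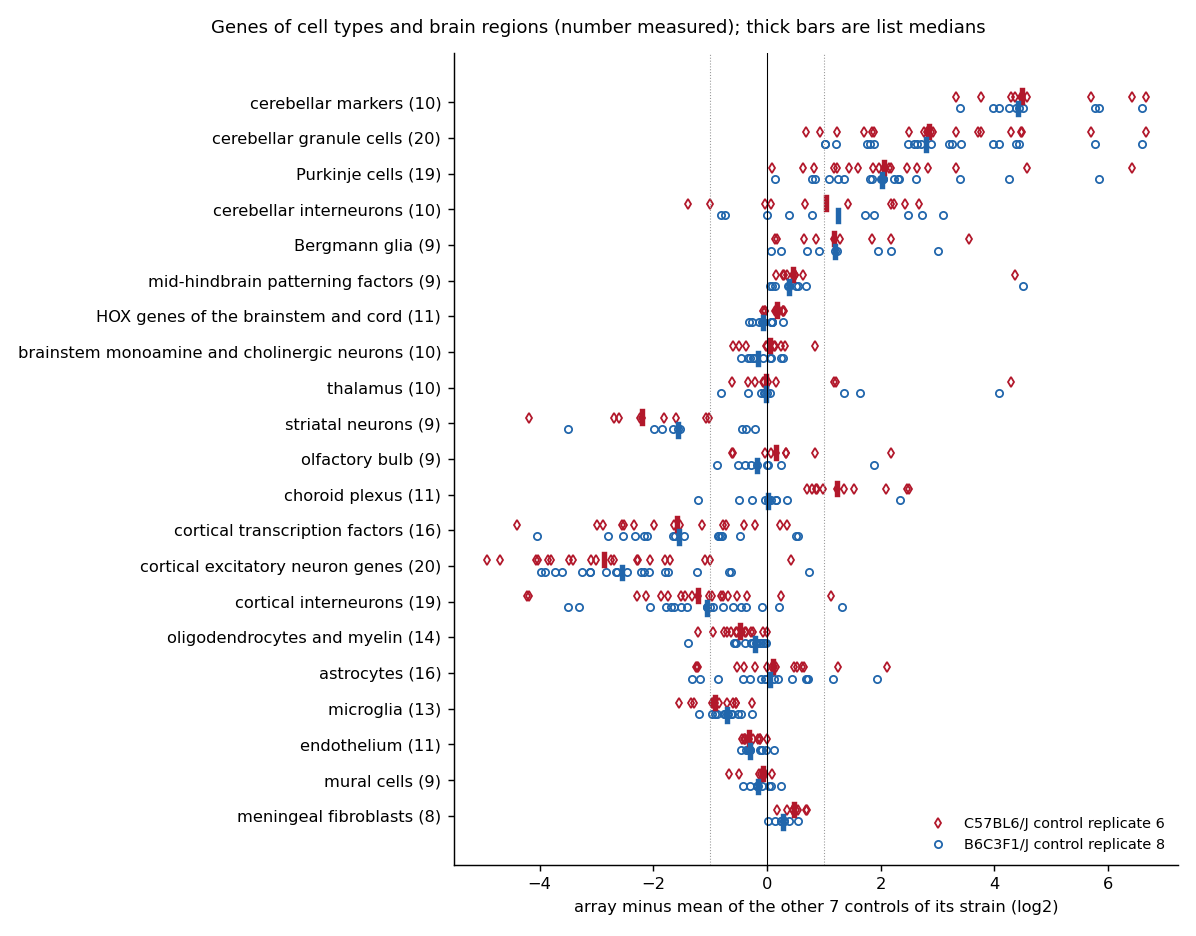
Each open symbol is a gene of the list named at the left (number of genes measured in parentheses), placed by its log2 difference from the mean of the other 7 controls of the strain, with red diamonds for C57BL6/J control replicate 6 (upper row of each list) and blue circles for B6C3F1/J control replicate 8 (lower row); thick bars are list medians and dotted lines the limit of 1. Granule and Purkinje cell genes lie to the right with medians of 2.85 and 2.79, and 2.06 and 2.03, cortical excitatory genes to the left with -2.88 and -2.55, and the choroid plexus list is apart only in the C57BL6/J array.

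Most genes listed for non-neuronal cells were no members, beside shares over all genes of 1.65% (higher) and 3.32% (lower). Lists this short would hold few members at those shares. The neuronal lists were drawn up by region and these by cell type, so the sizes of their differences cannot be compared directly. Of 14 oligodendrocyte and myelin genes, 1 was lower in both arrays, Opalin (-1.21 and -1.39), and the medians were -0.48 and -0.22. Of 13 microglial genes, 1 was lower, the receptor Csf1r (-1.29 and -1.20), with medians of -0.92 and -0.71, and all 13 lay below the mean of the controls in both arrays. None of 11 endothelial, 9 mural or 8 meningeal genes was a member, with medians of -0.31 and -0.29, -0.07 and -0.16, and 0.48 and 0.27. Among 16 astrocyte genes, the water channel Aqp4 (1.26 and 1.17) and angiotensinogen, Agt (2.11 and 1.94), were higher, while the glutamate transporter Slc1a2 (-1.24 and -1.19) and Mfge8 (-1.26 and -1.31) were lower, and the list's medians were 0.10 and 0.06. Slc1a2 had 11.36 in the C57BL6/J array and 11.26 in the B6C3F1/J array, against controls of 12.54 to 12.68 and 12.37 to 12.53.

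Families whose members serve the same function in different neurons split in both directions. GABA-A receptors are pentamers whose alpha subunit sets their kinetics and place. Of 14 subunit genes measured, Gabra6 was higher in both arrays and 5 were lower: Gabra5 (-4.27 and -3.90), Gabrg3 (-3.17 and -3.02), Gabra3 (-2.98 and -2.50), Gabra4 (-1.68 and -1.65) and Gabra2 (-1.36 and -1.12). Gabra5 had 6.17 in the C57BL6/J array and 6.51 in the B6C3F1/J array, against controls of 10.34 to 10.51 and 10.21 to 10.58. Gabrb2, a beta subunit of receptors in both regions, differed by 0.38 and 0.45.

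Among 6 NMDA receptor subunits, Grin2c, the subunit of mature granule cells, was higher (1.85 and 1.88) and Grin2b lower (-3.41 and -3.12). Grin2c had 10.03 in the C57BL6/J array and 9.97 in the B6C3F1/J array, against controls of 8.06 to 8.26 and 7.95 to 8.18, and Grin2b had 7.81 and 8.09, against 11.11 to 11.30 and 11.12 to 11.28. The 2 genes thus differed in opposite directions in the same arrays, each with no overlap. Of 7 metabotropic glutamate receptors, Grm4, presynaptic on parallel fibres, was higher (2.75 and 2.89), and Grm5 (-3.42 and -3.01), Grm3 (-1.82 and -1.31) and Grm7 (-1.56 and -1.49) were lower. Of 10 AMPA, kainate and delta receptor subunits, Gria4 and the kainate subunit Grik2 (1.10 and 1.26) were higher, and Grik5 (-1.24 and -1.03) and Grid1 (-1.43 and -1.19) lower.

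The cerebellins divided by gene, with 2 of 7 genes of the family and its partners higher and 3 lower. Cbln1 and Cbln3 were higher as above, and Cbln2 (-2.35 and -1.62) and Cbln4 (-1.41 and -1.65), which cortical neurons secrete, were lower, as was Grid1, which codes for a receptor of cerebellins. In the Neurod and Neurog family of 8, Neurod1 was higher and Neurod6 lower, and the other 6 lay between 0.03 and 0.55 log2 units above the controls. The GABA-A, NMDA, AMPA and kainate, metabotropic and potassium channel lists had medians between -1.56 and -0.30. Of 4 Zic genes, Zic1, Zic2 and Zic4 (1.23 and 1.21) were higher and Zic5 was at 0.81 and 0.88. Among 15 voltage-gated potassium channels, Kcnc1, the fast Kv3 channel of granule cells and other rapidly firing neurons, was higher (1.30 and 1.44), and Kcnq5 (-3.38 and -3.44), Kcnc2 (-3.33 and -2.64), Kcna4 (-2.60 and -2.51), Kcnq3 (-1.96 and -1.71) and Kcnb2 (-1.46 and -1.38) were lower. None of 7 vesicular transporter genes was a member.

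**Figure D4:**
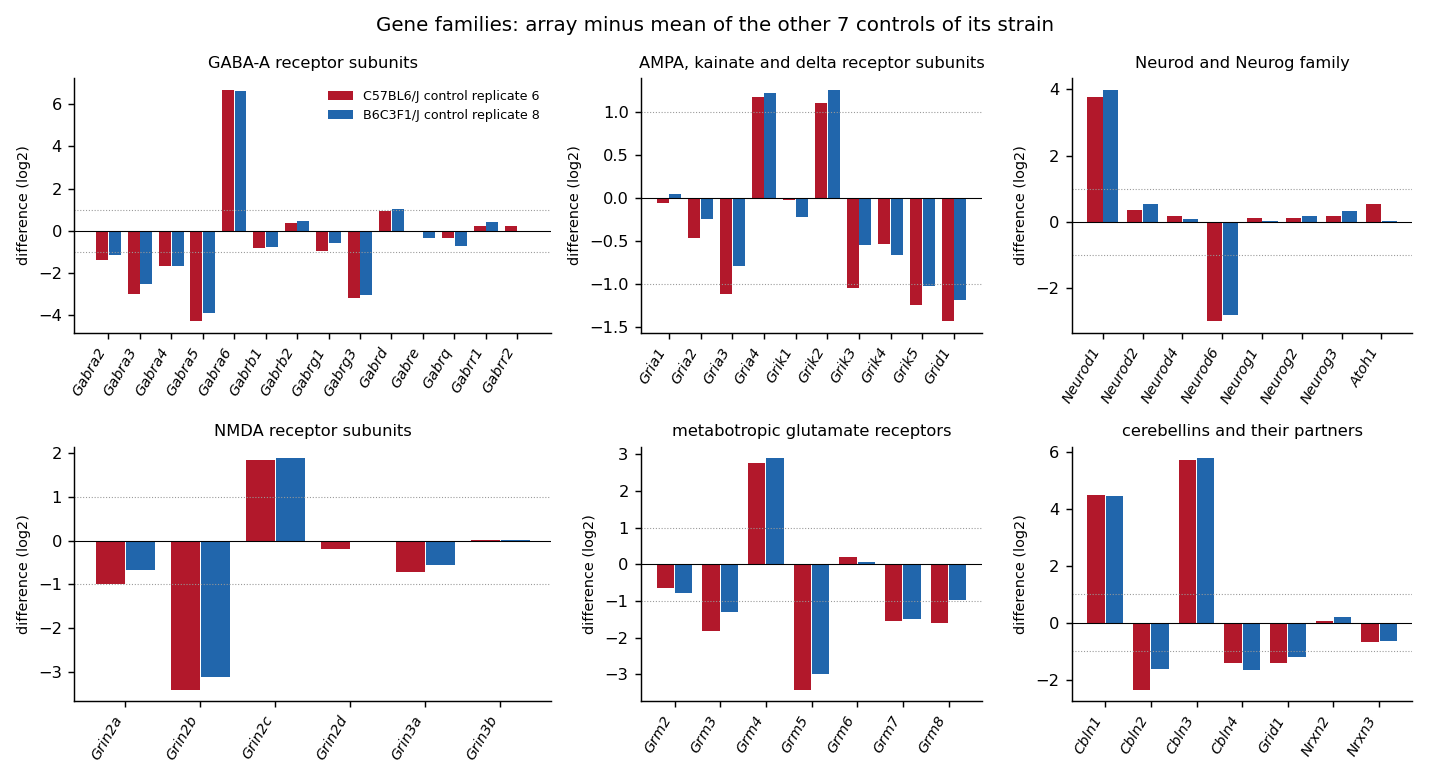
Bars give the log2 difference of each gene (x axis) from the mean of the other 7 controls of the strain, red for C57BL6/J control replicate 6 (left bar) and blue for B6C3F1/J control replicate 8, in 6 gene families; dotted lines mark the limit of 1, and the scale differs between panels. In most families single genes stand far above zero (Gabra6 6.66 and 6.59, Grin2c 1.85 and 1.88, Grm4 2.75 and 2.89, Neurod1 3.77 and 3.98) beside others far below it.

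MicroRNA genes among the members were looked up after the values had been seen, and 7 of 297 measured were found, 2 higher (0.673%) and 5 lower (1.68%). Both shares were below those of all genes, 1.65% and 3.32%, so the 7 are given as single genes. MicroRNAs are short RNAs cut from a hairpin that pair with messenger RNAs through their seed, bases 2 to 8. The probe sets read the gene and do not separate its hairpin, its arms or a longer transcript that runs through it. Mature sequences from RefSeq (GRCm38.p6) follow with 1 arm for each gene and the seed in capitals, to show which seeds the 7 genes carry.
Mir204, miR-204-5p: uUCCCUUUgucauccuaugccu
Mir505, miR-505-3p: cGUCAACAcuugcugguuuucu
Mir137, miR-137-3p: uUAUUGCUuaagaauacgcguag
Mir128-1, miR-128-3p: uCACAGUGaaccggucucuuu
Mir218-1, miR-218-5p: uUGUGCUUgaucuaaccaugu
Mir490, miR-490-3p: cAACCUGGaggacuccaugcug
Mir708, miR-708-5p: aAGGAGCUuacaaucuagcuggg
The 7 seeds were all different. Mir204 had 7.74 in the C57BL6/J array and 7.71 in the B6C3F1/J array, against controls of 5.59 to 6.07 and 5.84 to 6.20, and Mir505 differed by 1.14 and 1.04. Mir137, known for its high level in forebrain neurons, had 5.14 and 5.64, against 7.39 to 7.76 and 6.66 to 7.90. Mir128-1 (-2.04 and -1.95), Mir218-1 (-1.35 and -1.29), Mir490 (-1.19 and -1.12) and Mir708 (-1.10 and -1.14) were lower too. A protein-coding gene spans 6 of the 7 loci, and for 5 of them that gene was measured. In 4 of these 5 the spanning gene was itself a member in the same direction: Trpm3 around Mir204 (2.08 and 1.77), R3hdm1 around Mir128-1 (-1.15 and -1.002), Slit2 around Mir218-1 (-1.86 and -2.01) and Chrm2 around Mir490 (-1.75 and -1.79). Tenm4, around Mir708, was at -0.84 and -1.17.

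The 2 arrays differed from each other in a few sets of genes. Choroid plexus genes, of the epithelium that makes cerebrospinal fluid and lies in the ventricles of both brain regions, were past the limit and the range in 6 of 11 in the C57BL6/J array and in 1 of 11 in the B6C3F1/J array. The transthyretin gene Ttr had 13.14 in the C57BL6/J array, against a lowest of 9.13, a median of 10.70 and a highest of 12.47 in its controls, and 8.57 in the B6C3F1/J array, against 7.54, 10.12 and 12.40. The first array lay above all its controls and the second lay within the range of its own, and the controls themselves were widely spread. The gene medians were 1.23 and 0.02 log2 units. The exception was Otx2, a homeobox factor of choroid plexus and also of cerebellar granule precursors, with 9.05 and 8.86, against 6.20 to 7.16 and 6.28 to 6.75. The mean level of the 11 genes was 8.41 in the C57BL6/J array, against 6.54 to 7.62 in its controls, and its part in the other differences of that array was not tested.

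Olfactory receptor genes, singled out after their values were seen, made a second set. Of 1015 measured, 106 (10.4%) were higher past the limit and the range in the C57BL6/J array, beside 2.52% of all genes. In the B6C3F1/J array 0 were, beside 2.14% of all genes, and none was a member. The 106 were 60.9% of the 174 genes called higher in the C57BL6/J array alone, where the family was 1015 of the 19938 genes measured. Their median log2 level was 5.68 in the C57BL6/J array, against 5.04 for the mean of its controls, and 5.36 in the B6C3F1/J array, against 5.17. This family of receptors is silent in most brain cells. Other genes that were dim in the controls were also higher in the C57BL6/J array alone, among them Zfp600 (2.75 and 0.33) and Gm5662 (2.33 and 0.08). Both were picked as examples after their values were seen, and dim genes as a set were not compared with this family. Whether the shift was particular to the family was not tested, nor was its cause.

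The arrays of DBA/2J control replicate 8 and of CBA/J CR replicate 6, with intermediate marker levels, were also chosen for their values and are described without a test. Over the 58 higher genes with differences of at least 2 log2 units (4-fold) in both arrays, the signal of DBA/2J control replicate 8 above the other 7 of its group, on the linear scale, had a median of 7.38% of the signal by which the 2 arrays exceeded the 14 controls. The interquartile range was 5.66 to 10.5%. In CBA/J CR replicate 6 the median was 6.21% with an interquartile range of 4.41 to 7.34%. In the remaining 108 arrays the same median lay between -1.60% and 1.25% of that signal. RMA signal is not strictly proportional to RNA amount, so these shares are on the array's own scale.

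The higher members lay above their group in these 2 arrays more often than in any of the other 108. Of the 329 higher genes, 275 lay above the other 7 of the group in DBA/2J control replicate 8 and 285 in CBA/J CR replicate 6, against 88 to 223 in the other 108 arrays, with medians of 0.26 and 0.15 log2 units. Of the 661 lower genes, 462 and 386 lay below, which was inside the range of 128 to 529 in the other 108 arrays, and the medians were -0.13 and -0.02. The count was as high or higher in 6 of the 108 for DBA/2J control replicate 8 and in 29 for CBA/J CR replicate 6. Gabra6 had 8.98 in DBA/2J control replicate 8, against a mean of 5.47 in its group, and 8.53 in CBA/J CR replicate 6, against 5.50. Tbr1 had 9.48, against 10.02, and 10.04, against 10.04. In the other arrays the medians of the higher genes ranged from -0.09 to 0.08 and those of the lower genes from -0.13 to 0.11.

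CR was the treatment of the study, and the question of whether the members respond to it can be put to the 5 strains that the choice of genes did not use. Food allotments were not the same in all of these strains, and the model gives the mean of their CR differences. A limma model of the 80 arrays of DBA/2J, CBA/J, C3H/HeJ, Balbc/J and 129S1/SvImJ called 598 of 19938 genes at a Benjamini-Hochberg adjusted p under 0.05 (3% of genes), 346 higher (1.74%) and 252 lower (1.26%) under CR. Of the 329 higher members 7 were called (2.13%), 2 higher and 5 lower, and of the 661 lower members 20 (3.03%), 6 higher and 14 lower. These shares were near that of all genes. The median CR minus control difference was -0.0015 log2 units for the higher members, -0.011 for the lower members and -0.0025 over all genes. None of the 10 cerebellar markers was called, with Gabra6 at 0.05 ± 0.13 (SE, adjusted p = 0.90) and Cbln3 at 0.00 ± 0.09 (adjusted p = 0.99). The 80 arrays held both arrays of intermediate marker level, 1 on each diet. Their high marker signal entered both diet means and widened the spread, so these values cannot show that CR left the markers unchanged. Without these arrays the model called 545 genes, and the marker differences of that fit are not given here. The count of called genes was 92 without CBA/J and between 216 and 842 without any 1 of the other strains.

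Among the called members, Etnppl, an enzyme of ethanolamine phosphate breakdown in astrocytes and a higher member, averaged 7.44 in CR and 7.03 in control mice, a difference of 0.40 ± 0.08 (SE) with adjusted p = 0.00138, in the same direction in 5 of 5 strains. Slc14a1, the urea transporter, rose by 0.12 ± 0.03 (adjusted p = 0.0175), in 4 of 5 strains. Of the lower members, Kcnh3, a potassium channel of forebrain neurons, averaged 9.77 in CR and 9.91 in control mice, a difference of -0.13 ± 0.02 (adjusted p = 9.8e-05). Ncan, the proteoglycan neurocan (-0.10 ± 0.02, adjusted p = 0.00035), and Agap2 (-0.09 ± 0.02, adjusted p = 0.00071) also fell in all 5 strains. The higher member Gng13, a G-protein gamma subunit of Purkinje cells and other neurons, fell by 0.12 with adjusted p = 0.00303. Dbpht2 rose by 0.12 in 5 of 5 strains (adjusted p = 0.018) and Rwdd2a by 0.13 in 4 of 5 (adjusted p = 0.0116). All these differences were far smaller than those between the 2 arrays and their controls.

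Within C57BL6/J and B6C3F1/J the 2 arrays are themselves control samples of the CR comparison. With all 112 arrays in the limma model, the CR effect within C57BL6/J was called in 17 genes (0.0853%), of which 0 were members. Without the 2 arrays it was called in 72 (0.361%), 21 higher and 51 lower, of which 16 were shared with the 17. A model of the 16 arrays of the strain alone, control replicate 6 included, called 0 genes, and the model of all arrays with array weights called 342. The median CR minus control difference was -0.20 log2 units for the higher members and 0.15 for the lower members with the array in, which the array's own values fix, and -0.01 and -0.08 without it, against the controls that also served to choose the members, beside 0.0048 and -0.0002 over all genes. Leaving out 1 array of the strain at a time gave 2 to 32 called genes, the fewest without control replicate 3 and the most without control replicate 7, and 31 without control replicate 6.

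Called in C57BL6/J without the 2 arrays, by limma with Benjamini-Hochberg adjustment, were the clock genes Per2 (9.12 in CR and 8.63 in control mice, difference 0.49 ± 0.08 SE, adjusted p = 0.0018) and Per3 (0.27 ± 0.05, adjusted p = 0.0112), both also called with all arrays (adjusted p = 0.00026 and 0.00306). Ccdc134 (0.19 ± 0.04, adjusted p = 0.0237) and B3galt6 (-0.33 ± 0.06, adjusted p = 0.008) were called either way too. Krtap24-1 (0.40 ± 0.09, adjusted p = 0.0307), Ntmt1 (-0.20 ± 0.04, adjusted p = 0.0202) and Zbtb22 (-0.24 ± 0.05, adjusted p = 0.0202) were called only without the arrays. Sorcs3, a sorting receptor of the cortex that was lower in the 2 arrays though no member, averaged 9.17 in CR and 9.42 in the other control mice (-0.25 ± 0.05, adjusted p = 0.00692), and with all arrays its difference was -0.08 (adjusted p = 0.77).

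Of the members, 5 of 990 (0.505%) were past the threshold in C57BL6/J without the 2 arrays, beside 0.361% of all genes. The 7 controls of this comparison are those against which the members were chosen, so the values are a description and support nothing. CR minus control differences were -0.21 log2 units for the higher member Grin2c, and -0.20 for Sgsm2, -0.28 for Rasgef1c, -0.20 for Pnma2 and -0.36 for Arhgap42, all lower members. With all arrays in, Grin2c was at -0.44, Sgsm2 at -0.03 and Pnma2 at 0.03. Across the 5 other strains, which the choice of members did not use, limma called Grin2c and Rasgef1c lower under CR (-0.09 with adjusted p = 0.0170, and -0.09 with adjusted p = 0.0327). Grin2c was named after its values were seen.

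Within B6C3F1/J the limma model called 0 genes with all arrays (0%) and 0 genes without the 2 arrays (0%), with 1521 and 891 genes at an unadjusted p under 0.05. The median CR minus control difference with the array in was -0.23 log2 units for the higher members and 0.21 for the lower members. The array's own values fix these medians. Without the 2 arrays they were -0.02 and 0.01, against the controls that also served to choose the members. Of the 329 higher members 327 had a negative CR difference with the array in and 208 without the 2 arrays. Positive ones were held by 655 and 368 of the 661 lower members. In C57BL6/J the higher members had 321 negative differences with all arrays and 173 without the 2. The lower members there had 614 positive and 47 negative differences with all arrays. Without the 2 arrays most were negative instead, with 117 positive and 544 negative. In both strains the counts with all arrays follow from the choice of members, and those without the 2 are a description. The median residual SD of the members over the 14 groups was 0.27 log2 units with all 112 arrays and 0.14 without the 2, beside 0.14 and 0.13 over all genes. The members were chosen for their distance in these 2 arrays, so their wider spread with the arrays in was set by that choice.

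**Figure D5:**
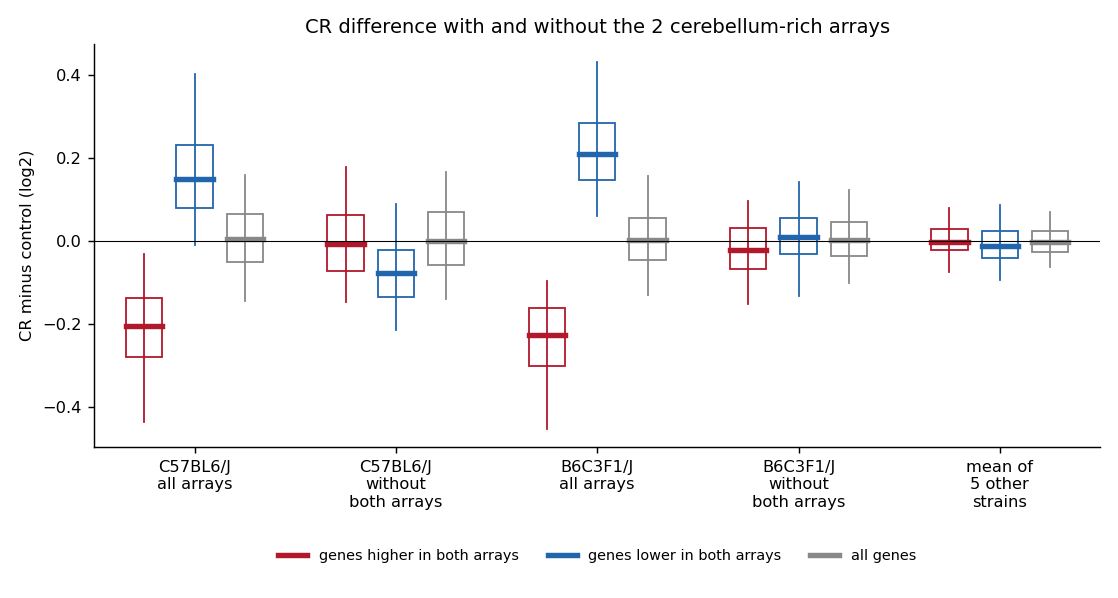
CR minus control difference (log2, y axis) of the genes higher in both arrays (red), lower in both (blue) and all genes (grey) in C57BL6/J, in B6C3F1/J, each with all arrays and without both arrays, and as the mean of the 5 other strains; thick bars are medians, boxes the interquartile range and lines the range from the 5th to the 95th percentile of genes. Red and blue boxes stand on opposite sides of zero with all arrays (medians -0.20 and 0.15 in C57BL6/J, -0.23 and 0.21 in B6C3F1/J) and much closer together otherwise, where the blue median in C57BL6/J is -0.08.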

How the data were processed

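The platform was the Affymetrix Mouse Gene 1.0 ST array, with 1 array of total RNA per mouse. The deposited values are log2 signals that the authors computed in Expression Console by the RMA-Sketch method at gene level, that is, background correction, quantile normalization and summary per probe set. The program version is not given in the sources used here. Quantile normalization assumes that most genes do not differ between arrays, so a shift shared by all genes would not be seen. Sequence differences between strains can alter the signal of single probe sets.

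The deposited file held 35556 probe sets, of which 21789 had exactly 1 gene symbol, 1621 several and 12146 none (unnamed here). Where a gene had several, the probe set brightest on average stood for it, leaving 19938 genes. Low signals were not filtered, and 0 sample columns were unused. Levels were not compared between probe sets. Replicates are separate mice, and both their number and the spread between arrays of a group limit the precision.

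The 2 arrays were compared with the other 7 controls of their strain by differences of log2 values. CR effects were fitted with limma 3.58.1 in R 4.3.3 (group means, lmFit, eBayes, two-sided, Benjamini-Hochberg over all genes), tested on simulated data first. Reading in R used data.table, version 1.17.8. Other steps used Python 3.11.15, numpy 2.4.6, pandas 2.3.3 and matplotlib 3.10.9. Named were the 10 markers, the 12 highest and 12 lowest members, up to 4 members per list and any gene of a family described whole, 3 genes on each side of the limit, and up to 4 genes each way per limma comparison by smallest p. Other list genes, the microRNA genes, the olfactory receptor genes, Zfp600, Gm5662 and Grin2c under CR were added after their values were seen. The arrays, members, markers and lists were chosen with earlier results of these data known. Gene lists were matched to symbols and RefSeq synonyms, and promoter and microRNA sequences are RefSeq's, of GRCm38.p6. Alternatives were other limits and references, centring, quantile normalization, every probe set, expression filters, robust fits, array weights, a replicate block and leaving out arrays or strains.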

Additional observations from a re-analysis of the deposited data

Results flagged for a closer look

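Mean levels of 4 gene lists were examined for single arrays far from the other 7 of their group, in 14 groups. Of 56 such checks 21 singled out an array, at a limit that chance passes in about 1 in 20, and the lists share cells and arrays. The 2 cerebellum-rich arrays and the 2 of intermediate level had been chosen for their marker values. Their flags were fixed by that choice or go with it, so the count of 21 cannot be weighed against chance. For the cerebellar markers the highest arrays were B6C3F1/J control replicate 8 (11.59, with the others at 6.71 to 7.40), C57BL6/J control replicate 6 (11.47, others 6.52 to 6.93), DBA/2J control replicate 8 (8.463, others 6.61 to 6.97), CBA/J CR replicate 6 (8.231, others 6.56 to 6.90), C3H/HeJ CR replicate 7 (7.393, others 6.53 to 6.78) and B6C3F1/J CR replicate 1 (7.172, others 6.71 to 6.86), and the lowest was Balbc/J CR replicate 5 (6.569, others 6.67 to 6.75).

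For the cortical transcription factors the lowest were B6C3F1/J control replicate 8 (7.75), C57BL6/J control replicate 6 (7.646), C3H/HeJ CR replicate 8 (8.738), B6C3F1/J CR replicate 3 (8.964) and 129S1/SvImJ control replicate 6 (8.985). The same 5 arrays were lowest for the cortical excitatory neuron genes, at 8.388 (B6C3F1/J control replicate 8), 8.069 (C57BL6/J control replicate 6), 10.4 (C3H/HeJ CR replicate 8), 10.51 (B6C3F1/J CR replicate 3) and 10.53 (129S1/SvImJ control replicate 6). For the choroid plexus genes the arrays that stood above the rest of their own group were DBA/2J control replicate 5 (8.349), C57BL6/J CR replicate 3 (8.204), B6C3F1/J control replicate 1 (7.465) and, in Balbc/J, control replicate 7 (7.93). All are given as values, and no cause was tested.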

How the results depend on the processing

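The count of 990 genes became 2078 with a limit of 1.5-fold and 202 with a limit of 2 log2 units, and stayed between 815 and 1110 under the other references, centrings, normalizations and filters tried. It was 980 to 997 on leaving out any 1 of the 14 other controls. With the controls of the other strain as reference, 294 higher and 592 lower genes were shared. Of 488 values of named genes' differences under 4 alternatives, 452 moved by less than 1 SD of the controls and 0 changed sign.

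The count of 598 genes for CR across the 5 other strains was 219 without 129S1/SvImJ, 302 without Balbc/J, 92 without CBA/J and 216 without DBA/2J. The 17 genes within C57BL6/J became 7 with quantile normalization, 27 among genes above the median gene, 342 with array weights, 72 without both cerebellum-rich arrays and 0 with only the 16 arrays of the strain. Leaving out 1 array gave 2 to 32: 2 to 10 without control replicates 1, 3, 4 or 8 or CR replicates 1, 2, 3, 6, 7 or 8, and 31 and 32 without control replicates 6 and 7. The 0 genes within B6C3F1/J stayed 0 except for 2 without control replicate 4 and 2 without control replicate 6. In C57BL6/J, Pnma2, at 0.03 with all arrays, was at -0.18 with array weights, -0.20 without both arrays, and between -0.20 (without control replicate 6) and 0.079 (without control replicate 1) on leaving out 1 array. Sgsm2, at -0.03, was at 0.0057, 0.0035 and 0.014 without control replicates 3, 4 and 8, and at -0.20 without control replicate 6. The cause of these moves was not tested, beyond the fewer samples or genes that each setting leaves.

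Replicate numbers are in the labels. Of 56 same-numbered pairs of CR and control arrays, 31 had deviations that correlated above 0.1 (range -0.48 to 0.37). The median correlation was positive in every strain, from 0.02 in Balbc/J to 0.20 in CBA/J. What same-numbered arrays may share is not in the labels and was not tested, and the main models did not pair by number. With a replicate block the counts were 644 across the 5 strains, 21 in C57BL6/J and 0 in B6C3F1/J.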

Other observations

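Adhesion and guidance genes, which steer axons and match synaptic partners, were looked up by family after their values were seen. Of 69 genes in 6 families, 25 were lower in both arrays and 2 higher, given as a description beside 3.32% and 1.65% of all genes. The lower ones included 5 of 13 Eph receptors (Epha5 at -2.39 in the C57BL6/J array and -2.50 in the B6C3F1/J array, Epha4 at -2.40 and -2.11), 3 of 8 ephrins (Efna3 at -2.04 and -1.85), 6 of 12 non-clustered protocadherins (Pcdh10 at -2.44 and -2.09) and 3 of 7 Slit and Robo genes (Slit1 at -2.16 and -2.17). Cadherins split, with 6 of 23 lower (Cdh9 at -3.89 and -3.29) and Cdh15 (1.56 and 1.68) and Cdh7 (1.23 and 1.55) higher.

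Of the long non-coding RNA genes measured, Airn, the antisense transcript of the imprinted Igf2r gene, had the largest higher difference (2.97 and 3.00), and 1700086L19Rik the largest lower one (-3.83 and -3.49). The overlapping Igf2r gene was at 0.44 and 0.64, and was no member.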
